A study of Mus musculus with 18 samples.

Results

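Cavity cells collected 7 days after implantation of a sterile object were compared with cavity cells collected at day 4, across all genes. The comparison rests on 4 of the 18 arrays of the study, 2 at each day, assigned to their days by the labels. Each array measured pooled cells with bright EGFP, sorted from the peritoneal lavage of MacGreen mice on the C57Bl/6J strain, aged 10 to 16 weeks, whose EGFP is under the Csf1r promoter and marks cells of the myeloid lineage. The other groups were lavage cells of mice without an implant (day 0) and of mice at day 2 and day 14, and cells from the digested tissue capsules at day 7, 14, 21 and 28. All groups carried the reporter and were sorted for bright EGFP. Whether the 2 arrays of one day held cells of separate mice is not given in the labels, and the p-values therefore measure a spread between arrays that may be only technical.

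A sterile object in the peritoneal cavity draws in neutrophils and then monocytes, which arrive along gradients of chemokines released by resident macrophages, the lining mesothelium and the first recruits. As inflammation resolves, neutrophils die and are cleared by macrophages, inflammatory cytokines fall, and macrophages exposed to interleukin-4 or interleukin-13 switch to the state called alternative activation. An object that stays in place is then walled off by a capsule of myeloid cells and matrix-producing cells. The question here was what changed in the myeloid cells left in the cavity over the days when such a capsule had formed, day 7 being the first day at which capsules were sampled.

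Levels are given as normalised log2 intensity, so a difference of 1 is a 2-fold change. The lowest level detected on these arrays was between 5.68 and 5.77. The 4 arrays detected between 16692 and 17346 of 46632 probes. Across the 10806 genes tested, arrays of the same day correlated at 0.992 to 0.993, against 0.975 to 0.977 between the days. Day 4 and day 7 shared both slides, with replicate 1 on slide 1 and replicate 2 on slide 2, but each day kept the same position on the slide, so array position and day cannot be told apart. Macrophage genes were high at both days: Adgre1, a surface receptor used to mark macrophages, read 14.98 and 14.96 at day 4 and 14.81 and 14.89 at day 7, and Lyz2 lay between 15.66 and 15.85. No probe in the annotation used here was named for Csf1r itself.

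One set of readings separated the arrays by day before any immune gene was considered. The Y-linked Eif2s3y read 5.05 and 6.07 at day 4 and 10.09 and 9.33 at day 7. A second Y-linked gene, Kdm5d, was detected on all 4 arrays, at 8.45 and 9.07 and then at 8.78 and 8.41. Xist, expressed from the inactive X chromosome of female cells, was also detected on all 4, at 8.60 and 8.33 and then at 10.36 and 9.46. Eif2s3y rose by 4.15 (SE 0.36, adjusted p = 8.47e-06) and Xist by 1.45 (SE 0.29, adjusted p = 0.0065), whereas Kdm5d differed by -0.16 (SE 0.31, adjusted p = 0.83). Across the study these genes did not simply follow the day. Eif2s3y read 4.80 and 4.86 in capsule cells at day 14 but 9.98 and 10.20 at day 28. Kdm5d read 4.75 and 5.10 at day 0 and 8.15 and 8.90 at day 2, where Eif2s3y read 5.41 and 5.50. The labels used here give no sex for the mice, and the part of a different mix of animals at the 2 days in the other results was not tested.

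Of 10806 genes tested with limma and Benjamini-Hochberg adjustment, 1110 changed at an adjusted p of 0.05, or 10.3%. At day 7, 474 genes (4.39%) were higher and 636 (5.89%) were lower, and the median change of all genes was -0.014. Among them, 154 rose by 2-fold or more (1.43%) and 270 fell by that much (2.5%). The arrays of the 2 days did not overlap for 54.5% of all genes, so that feature alone marks little. Counts within a gene list are to be read against the 4.39% and 5.89%, so a single call in a list marks little either. Leaving out any 1 of the 4 arrays cut the count from 1110 to between 575 and 634, because 1 array then stood for its day. Scaling arrays by their medians instead of by quantiles gave 322 higher and 815 lower genes, so the balance of rises and falls depends on the scaling.

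**Figure D1:**
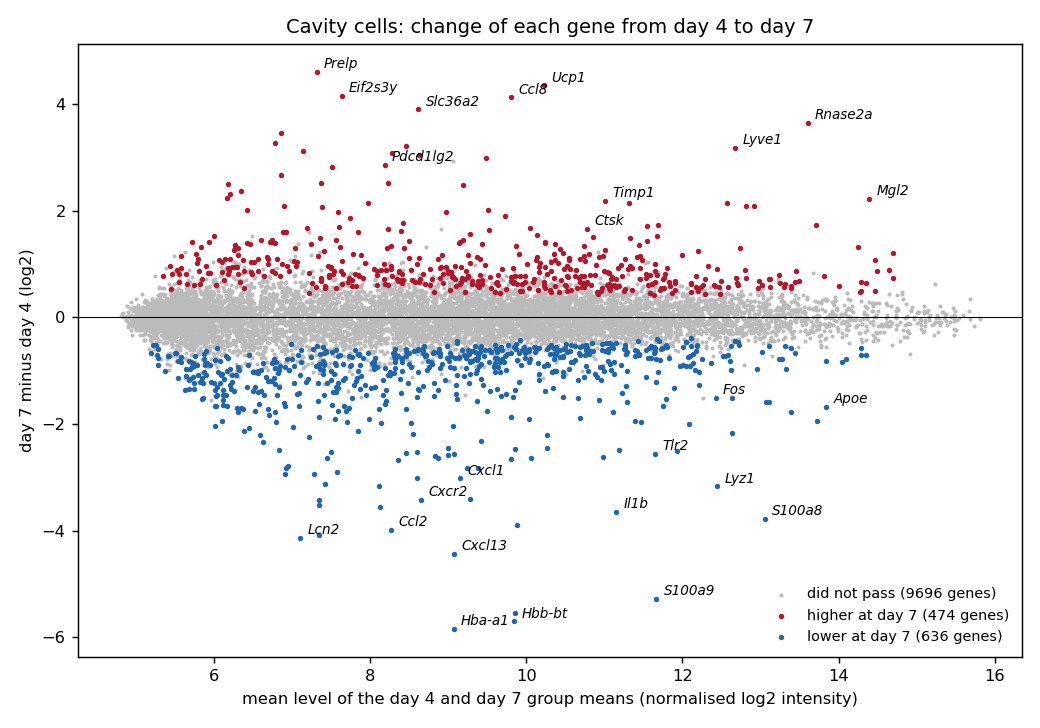
Each point is a gene, with its mean level over the 2 days on the horizontal axis (normalised log2 intensity) and its change, day 7 minus day 4, on the vertical axis (log2); colours mark the 474 genes that passed as higher and the 636 that passed as lower. The falls reach further than the rises, down to -5.84 for Hba-a1, and the largest rise was 4.60 for Prelp.

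Neutrophil genes were among those that fell most. S100a9, one chain of the alarmin calprotectin, read 14.01 and 14.60 at day 4 and 8.71 and 9.34 at day 7. Its partner chain S100a8 read 14.86 and 15.04 and then 11.25 and 11.09. Both were among the bright genes of the array at day 4, and in neither did any day 7 array come near a day 4 array. The falls were -5.28 (SE 0.50, adjusted p = 1.96e-05) for S100a9, or 38.8-fold, and -3.78 (SE 0.24, adjusted p = 1.18e-06) for S100a8.

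Cxcr2, the receptor through which neutrophils follow chemokines, read 10.14 and 10.57 at day 4 and 6.69 and 7.19 at day 7, a fall of -3.42 (SE 0.36, adjusted p = 4.32e-05). Lcn2, a neutrophil granule protein that binds bacterial iron carriers, read 9.18 and 9.17 at day 4 and was not well above background on either day 7 array, which made it at least 11.1-fold lower (adjusted p = 1.81e-05). The gelatinase Mmp9 and Csf3r, the receptor for the neutrophil growth factor G-CSF, fell by -2.64 and -1.95 (adjusted p = 0.000115 and 5.06e-05). These 2 genes were already high in cavity cells without an implant. At day 0 Mmp9 read 10.64 and 10.35 and Csf3r 12.79 and 12.94, so their signal here is not particular to recruited neutrophils. Of 14 neutrophil markers and alarmins tested, 8 fell and 1 rose, with a list median of -1.23 against -0.014 for all genes. The exception was Elane, neutrophil elastase, named because it was the only rise: it read 5.91 and 5.56 and then 7.36 and 6.88 (1.39, adjusted p = 0.0125), a call lost without day 7 replicate 1 or day 4 replicate 2 (adjusted p up to 0.11).

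Other genes of the list gave no call: Camp differed by -0.02 and Ltf by -0.04, and Mmp8 was below background on all 4 arrays. Retnlg, a resistin-like protein made by mouse neutrophils, read 10.03 and 10.30 at day 4 and 10.28 and 10.36 at day 7. The difference was 0.15 (adjusted p = 0.912), although Retnlg had been higher at day 2 (11.28 and 9.71) than at day 0 (5.59 and 5.50). Ly6g, Ngp and Mpo were not analysed here. Summed over the 14 genes on the linear scale, the neutrophil list stood at 75842 and 89725 intensity units at day 4 and at 13824 and 13775 at day 7. S100a8 and S100a9 made up most of the sum at day 4, so its fall mainly restates theirs. In sorted bulk cells, fewer neutrophils and less of these transcripts per cell cannot be told apart.

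Cxcl1 and Cxcl2, chemokines that call neutrophils, fell alongside. Cxcl1 read 10.75 and 10.58 at day 4 and 7.58 and 7.71 at day 7, and Cxcl2 read 10.71 and 11.26 and then 7.67 and 7.51. The replicates of each day lay close together, and no day 7 array of either gene came near a day 4 array. The fall was -3.02 for Cxcl1 (SE 0.18, adjusted p = 1.11e-06) and -3.40 for Cxcl2 (SE 0.24, adjusted p = 1.78e-06). Both were already high without an implant, at 11.43 and 10.28 at day 0. At day 2 Cxcl1 was lower than at day 0 (-1.46) and Cxcl2 differed by 0.36 without passing. Day 7 thus lay below day 0, by -3.79 and -2.70. Pf4, a platelet-type chemokine that macrophages also express, stood on the same list but is not a typical neutrophil attractant. It fell by -0.97 (adjusted p = 0.0023), which made 3 falls among the 4 list members tested. At day 7 the capsule cells read 15.25 and 14.75 for Cxcl1 and 14.78 and 14.28 for Cxcl2. Capsule cells came from digested tissue and cavity cells from lavage, so place and handling cannot be told apart in these readings.

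The promoters of Cxcl1 (chr5:90890995-90891294, plus strand) and Cxcl2 (chr5:90903649-90903948, plus strand) are shown because these neighbouring genes fell together. Sequences are from RefSeq on build GRCm38.p6, run from 250 bases before to 50 after the annotated start, and are written 5′ to 3′. Capitals mark matches to the NF-kB consensus on either strand. Each window held the same 11 letters, which match on both strands.
Cxcl1: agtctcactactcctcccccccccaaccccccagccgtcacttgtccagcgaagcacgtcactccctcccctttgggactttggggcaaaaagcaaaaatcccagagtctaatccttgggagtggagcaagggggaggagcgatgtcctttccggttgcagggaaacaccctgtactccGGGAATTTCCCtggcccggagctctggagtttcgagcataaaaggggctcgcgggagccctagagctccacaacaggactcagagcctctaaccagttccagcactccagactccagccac
Cxcl2: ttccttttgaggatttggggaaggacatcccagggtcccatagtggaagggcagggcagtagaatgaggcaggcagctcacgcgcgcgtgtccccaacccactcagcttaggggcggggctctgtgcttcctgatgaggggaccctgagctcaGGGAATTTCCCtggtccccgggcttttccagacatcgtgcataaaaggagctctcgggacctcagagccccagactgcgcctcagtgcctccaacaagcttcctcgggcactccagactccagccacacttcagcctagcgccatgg
A match to this consensus was present in 9.55% of 27025 mouse promoters of the same length, in 11.7% of the 8784 tested genes that have a promoter in that table, in 11.9% of the 503 that fell and in 9.97% of the 391 that rose. Among genes that fell by 2-fold or more it was 13.8% of 210, against 6.98% of 129 that rose by as much. These shares are descriptions of letters, not of sites in use.

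Monocyte chemokines moved apart within one gene family. Ccl2, the main ligand of the monocyte receptor Ccr2, read 9.76 and 10.76 at day 4 and 6.42 and 6.13 at day 7. Its close relative Ccl8 went the other way, from 8.06 and 7.44 to 12.30 and 11.44. In both genes the days were separated by over 3 log2 units. Ccl2 fell by -3.98 (SE 0.55, adjusted p = 0.000406), a 15.8-fold drop, and Ccl8 rose by 4.12 (SE 0.43, adjusted p = 4.32e-05), a 17.4-fold increase. Ccl8 stood at 5.64 at day 0 and 6.60 at day 2, and at 9.82 at day 14, so its highest cavity level was at day 7.

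Of 19 monocyte and type 2 chemokines tested, 7 fell and only Ccl8 rose, with a median of -0.95. Ccl3, made by activated macrophages, fell from 9.74 and 10.48 to 6.99 and 7.20 (-3.02, adjusted p = 0.000355). Ccl7 went from 12.82 and 13.54 to 10.91 and 10.43 (-2.51, adjusted p = 0.00408, or 0.0506 without day 4 replicate 2). Cxcl14 and Cxcl16 fell by -1.88 and -0.93. Among ligands tied to type 2 responses, Ccl24 differed by 0.45 and Ccl17 by 0.22 without a call, and Ccl22 was below background on all 4 arrays. Ccr2 itself read 10.11 and 10.15 at day 4 and 10.25 and 10.16 at day 7, a difference of 0.08 (adjusted p = 0.915).

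Among inflammatory cytokines, Il1b, the fever-inducing interleukin-1β, read 12.73 and 13.21 at day 4 and 9.02 and 9.63 at day 7. The fall was -3.64 (SE 0.25, adjusted p = 1.59e-06), or 12.5-fold. Csf1, the growth factor for macrophages and the ligand of the receptor behind the reporter, read 8.68 and 9.54 and then 5.29 and 5.90, with 1 of the 2 day 7 arrays above background. It fell by -3.52 (SE 0.50, adjusted p = 0.000524), and a second Csf1 probe by -1.12 (adjusted p = 0.0114). Tnf read 6.67 and 7.03 at day 4 and was not well above background at day 7, at least 2.22-fold lower (adjusted p = 0.00157).

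The same list also held Il1rn, the natural antagonist of interleukin-1, which fell with it, from 9.29 and 9.36 to 8.19 and 7.88 (-1.29, adjusted p = 0.00556, or 0.0606 without day 7 replicate 2). In all, 5 of 16 inflammatory genes fell and 0 rose, with a median of -0.38. The count was 3 without day 7 replicate 2 and 4 without any other array. One of the 5, Nlrp3, was below background on all 4 arrays and has no usable fold. Il6 stayed at 8.54 and 8.60 against 8.71 and 8.39 (-0.02, adjusted p = 0.978), and Il1a differed by 0.03. At day 7 capsule cells, which came from digested tissue, read 13.94 for Il1b, 12.42 for Tnf and 10.81 for Ccl2. The part of digestion in these levels was not tested.

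**Figure D2:**
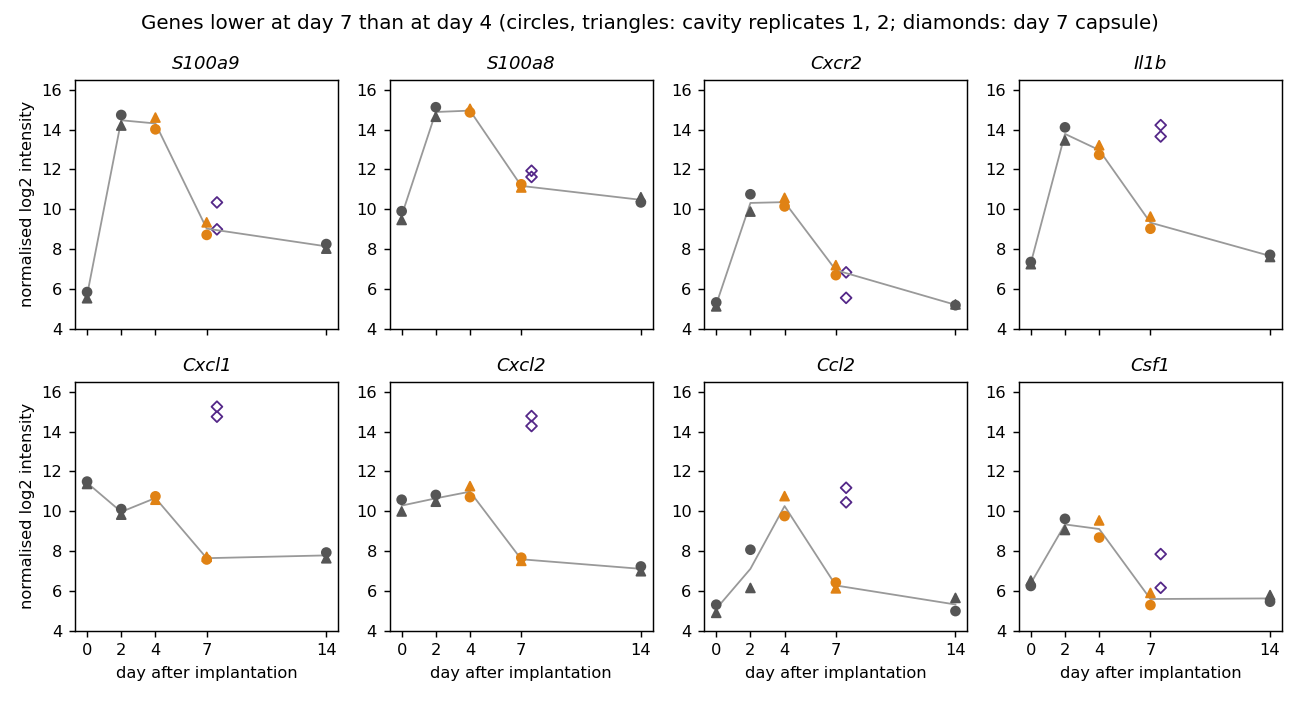
Normalised log2 intensity of 8 genes that fell, by day after implantation; circles and triangles are replicates 1 and 2 of the cavity cells, the line joins their means, orange marks day 4 and day 7, and open diamonds, drawn just right of day 7, are the 2 capsule arrays. S100a9 drops from 14.01 and 14.60 to 8.71 and 9.34, and the capsule arrays of Cxcl1, Cxcl2 and Il1b lie far above the day 7 cavity arrays. Capsule cells came from digested tissue, so place and handling cannot be told apart.

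Genes of the immediate early response, which are switched on rapidly after stimulation, fell in 10 of 18 cases. Fos, a subunit of the AP-1 factor, read 12.90 and 13.46 at day 4 and 11.92 and 11.42 at day 7 (-1.51, SE 0.22, adjusted p = 0.000546). Zfp36, which destabilises cytokine messages, and Dusp1, a phosphatase of stress kinases, fell by -1.27 (adjusted p = 0.000402) and -1.59 (adjusted p = 0.000233). Ier2 dropped below background at day 7 and was at least 2.52-fold lower (adjusted p = 0.000537). None rose, and the median was -0.81. The count was 8 without day 4 replicate 1, 7 without day 7 replicate 1, 6 without day 7 replicate 2 and 4 without day 4 replicate 2. Such genes also respond to handling of cells, and the part of handling was not tested.

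Of 11 feedback regulators of NF-kB, the factor that drives inflammatory genes, 3 fell and 0 rose. Socs3 fell by -0.85, Ier3 by -0.74 and Nfkbiz by -0.60 (adjusted p = 0.0125, 0.00835 and 0.0321). The median was -0.31, a second Ier3 probe fell by -1.36, and none of the 3 passed without day 4 replicate 2. Nfkbia, the classical inhibitor, differed by -0.83 and missed the threshold (adjusted p = 0.0532). On the 12 arrays of slides 1 and 2, the adjusted p of Nfkbiz was 0.0667 with the replicate number as a block and 0.0518 without it. Of 10 interferon-induced genes 0 passed, and the median was -0.65. Irf7 and Rsad2 differed by -1.49 and -1.38 (adjusted p = 0.0665 and 0.0832), Oasl2 was not well above background at day 7 (adjusted p = 0.0935), and Oasl1 read 6.43 and 6.25 and then 6.85 and 7.69.

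Alternative activation moved in the opposite direction for some of its genes. Rnase2a, a ribonuclease of the eosinophil-associated family, read 11.47 and 12.09 at day 4 and 15.41 and 15.45 at day 7. Mgl2, a galactose-binding lectin of alternatively activated macrophages, read 13.24 and 13.33 and then 15.38 and 15.63. Pdcd1lg2, which encodes PD-L2, an inhibitory ligand for T cells induced by interleukin-4, read 6.70 and 6.83 and then 9.47 and 9.77. In all 3 genes each day 7 array stood at least 2 log2 units above each day 4 array. They rose by 3.65 (SE 0.17, adjusted p = 6.41e-08), 2.22 (SE 0.16, adjusted p = 2.35e-06) and 2.86 (SE 0.20, adjusted p = 1.59e-06). The smallest adjusted p among the genes described here was that of Rnase2a. Its means at day 7, day 14 and in the day 7 capsule were 15.43, 15.55 and 15.51, close to the top of the scanner scale. The SE pools all groups, and the close readings near the top narrow it, whereas the day 4 arrays lay further apart. The rank of this p therefore marks little.

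Mrc1, the mannose receptor, rose by 0.87 (adjusted p = 0.016, up to 0.137 with 1 array left out) and Chil4, a chitinase-like protein, by 1.21 (adjusted p = 0.0171, up to 0.19). Both calls held without day 4 replicate 2 and were lost without any other array. Of 21 alternative activation genes tested, 5 rose and 2 fell, with a median of 0.31. The falls were Clec7a, the receptor Dectin-1 (-0.91, adjusted p = 0.00461, lost without day 4 replicate 2 or day 7 replicate 2), and Socs2 (-0.72, adjusted p = 0.0417, lost without any 1 array and, on the 12 arrays of slides 1 and 2, at 0.0608 with the replicate block and 0.0602 without it). The enzyme arginase and the secreted protein RELMα gave no call: Arg1 read 15.65 and 15.60 and then 15.74 and 15.71 (0.11, adjusted p = 0.713), and Retnla 15.34 and 15.67 and then 15.85 on both arrays (0.35, adjusted p = 0.152). Intensities of Arg1, Retnla and Mgl2 reached 63318, 68003 and 61480, near the top of the scanner scale, where differences are compressed. A second, dimmer Mgl2 probe rose by 2.91. Probes for Rnase2a and Chil4 may also read their close relatives, which leaves those 2 genes uncertain.

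The promoter of Pdcd1lg2 (chr19:29410669-29410968, plus strand) is shown as that of a rising gene known as an interleukin-4 target. Capitals mark, in order, a match to the NF-kB consensus and a match to TTCNNNNGAA, the spacing preferred by STAT6, the factor activated by interleukin-4.
Pdcd1lg2: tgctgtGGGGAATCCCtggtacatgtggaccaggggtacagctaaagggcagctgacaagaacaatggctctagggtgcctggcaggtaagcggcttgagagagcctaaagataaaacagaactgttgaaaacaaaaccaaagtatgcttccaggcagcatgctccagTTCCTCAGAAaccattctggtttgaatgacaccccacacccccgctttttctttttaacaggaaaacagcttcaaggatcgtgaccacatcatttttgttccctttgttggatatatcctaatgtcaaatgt
TTCNNNNGAA, which reads the same on both strands, was present in 8.01% of all promoters in the table, in 6.75% of tested genes, in 7.42% of those that rose and in 6.56% of those that fell. Among genes that rose by 2-fold or more the share was 11.6% of 129, and among those that fell by as much 7.14% of 210. No match says only that the letters are not in the window.

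**Figure D3:**
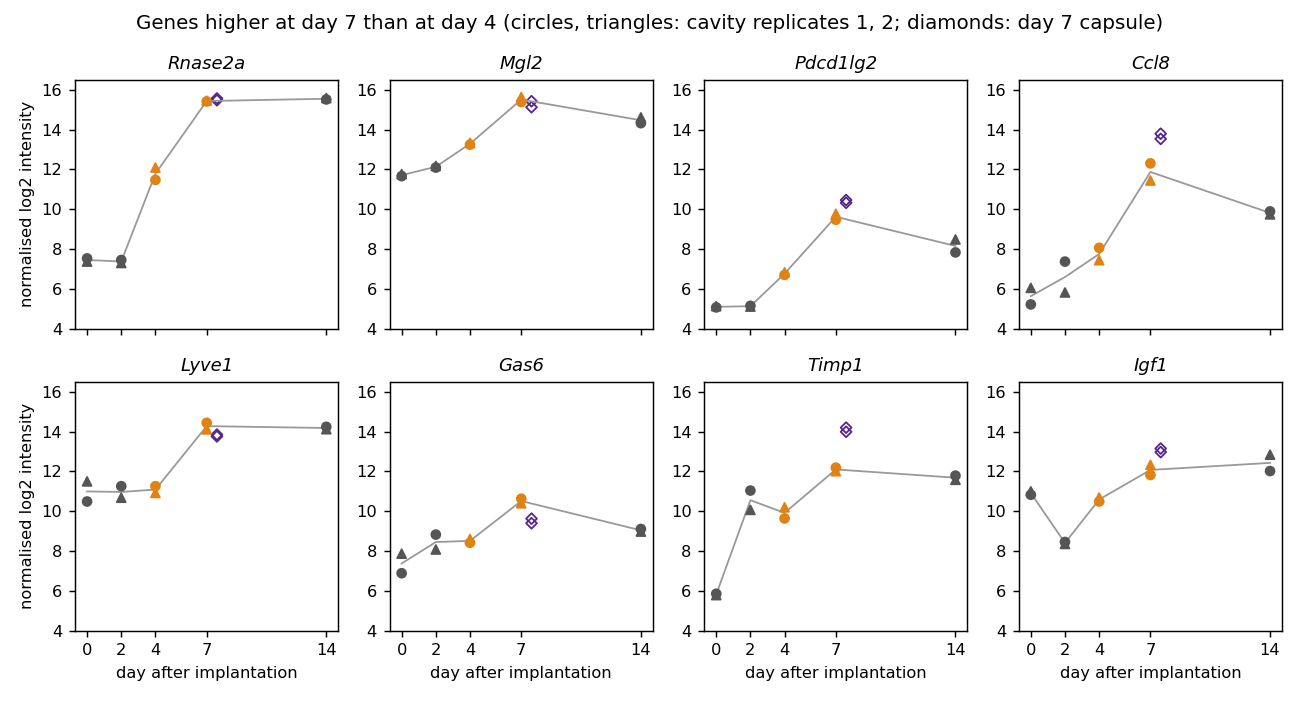
Normalised log2 intensity of 8 genes that rose, by day after implantation, with symbols as for the genes that fell: circles and triangles for cavity replicates 1 and 2, orange for day 4 and day 7, open diamonds for the 2 day 7 capsule arrays. Rnase2a climbs from 7.38 at day 2 to 15.41 and 15.45 at day 7 and stays at 15.55 at day 14, whereas Ccl8 is highest in the cavity at day 7.

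Several genes of the resident macrophages of the peritoneum were lower at day 7 than at day 4. Cxcl13, a B cell chemokine that resident peritoneal macrophages make, read 12.01 and 10.59 at day 4 and 6.73 and 7.00 at day 7, a fall of -4.43 (SE 0.38, adjusted p = 8.14e-06). At day 0 it had read 15.11. Timd4, a receptor for dying cells that marks long-lived resident macrophages, fell by -1.53 (adjusted p = 0.000855), from 12.70 and 12.43 to 10.77 and 11.30. Gata6, the transcription factor that specifies these cells, read 12.71 and 12.37 and then 12.04 and 12.11, a difference of -0.46 that did not pass (adjusted p = 0.332). Of 19 resident macrophage genes tested, 5 fell and 1 rose, with a median of -0.34; without day 4 replicate 1 or day 7 replicate 1 the falls numbered 3. The apolipoprotein gene Apoc1 and the scavenger receptor Marco fell by -2.89 (adjusted p = 0.000218) and -2.60 (adjusted p = 0.00973), Marco missing the threshold without day 4 replicate 1 or day 7 replicate 1 (adjusted p up to 0.0971).

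The rise in this list was Lyve1, a hyaluronan receptor of perivascular and tissue macrophages and of lymphatic endothelium. It read 11.26 and 10.92 at day 4 and 14.44 and 14.11 at day 7, a rise of 3.18 (SE 0.28, adjusted p = 8.84e-06), or 9.08-fold. At day 0 it had read 10.49 and 11.50 and at day 2 11.26 and 10.68, overlapping day 4, and at day 14 it read 14.24 and 14.12. Day 14 against day 0, which shares no array with day 7 against day 4, gave a rise of 3.18 as well (adjusted p = 1.82e-06).

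Of 21 macrophage identity genes, 6 fell and 2 rose, with a median of -0.25. Lyz1, a lysozyme, fell from 14.01 and 14.05 to 10.60 and 11.13 (-3.17, SE 0.32, adjusted p = 3.53e-05), although Lyz2 differed by -0.16. Lyz2 lay at the level of Arg1 and Retnla, near the top of the scanner scale, so its difference may be compressed. Fcgr1, the high-affinity IgG receptor, fell by -2.83 (adjusted p = 4.49e-06), the receptor for bacterial lipoproteins Tlr2 by -2.56 (adjusted p = 1.59e-06), and the fractalkine receptor Cx3cr1 by -2.55 (adjusted p = 2.9e-05). In each of these genes the 2 day 7 arrays lay over 2 log2 units below the 2 day 4 arrays. The rises, Maf by 1.08 and Tlr4 by 0.48, were each lost when 1 of several arrays was left out, with adjusted p up to 0.193 and 0.254. On the 12 arrays of slides 1 and 2 that of Tlr4 was 0.0698 with the replicate block and 0.0595 without it. Clec4n, which encodes the fungal receptor Dectin-2, fell from 11.88 and 11.78 to 7.68 and 8.18 (-3.90, adjusted p = 3.86e-06).

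Of 11 genes on the classical monocyte list, 3 fell and 0 rose, with a median of -0.13. The falls were not particular to monocytes. Cd177, better known from neutrophils, fell by -1.67 (adjusted p = 0.000807). Itgal, an integrin chain of leukocytes, fell by -1.64 (adjusted p = 0.00547), a call lost without day 7 replicate 1. Ly6c1 fell by -2.58 with a wide error (SE 0.70, adjusted p = 0.0324), and its call was lost without any 1 of the 4 arrays. Its probe may share signal with related Ly6 genes. S100a4, high in monocytes, differed by -0.13, and Vcan was below background on all 4 arrays.

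Of 17 receptors and bridging molecules for dying cells, 4 fell and 1 rose, with a median of -0.36. Each fit with 1 of the 4 compared arrays left out lost some of these falls. The rise was Gas6, the ligand that links phosphatidylserine on dying cells to the receptors Mertk and Axl. It read 8.42 and 8.61 and then 10.63 and 10.40 (2.01, SE 0.27, adjusted p = 0.000362). Of its receptors, Axl fell by -1.01 (adjusted p = 0.0326, lost without day 4 replicate 1, day 4 replicate 2 or day 7 replicate 2), and Mertk differed by -0.27 (adjusted p = 0.396). Cd36, a receptor for oxidised lipid, was not well above background at day 7 and was at least 2.11-fold lower (adjusted p = 0.02, up to 0.17 when day 7 replicate 1, day 4 replicate 2 or day 7 replicate 2 was left out).

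Of 17 enzymes of lipid mediators tested, 1 passed. This was Ptgis, prostacyclin synthase, which fell by -1.67 (adjusted p = 0.0318, and on the 12 arrays 0.0686 with the replicate block and 0.0539 without it). Its day 4 arrays read 13.25 and 11.92, and the call was lost without day 4 replicate 1 or either day 7 array. Alox15, which makes precursors of pro-resolving mediators, differed by -1.45 and did not pass (adjusted p = 0.0583), and Alox5 by -0.33. Of 11 complement genes 1 fell, Cd55, a brake on complement (-1.17, adjusted p = 0.00891, up to 0.0775 with 1 array left out, kept only without day 4 replicate 2).

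Of 20 genes of lipid handling and cholesterol, 6 fell and 1 rose, with a median of -0.41. Apoe, the main apolipoprotein of macrophages, read 14.91 and 14.45 and then 12.87 and 13.14 (-1.68, SE 0.24, adjusted p = 0.000533). Lpl, which releases fatty acids from lipoproteins, fell by -1.77 (adjusted p = 2.45e-05) and its activator Apoc2 by -1.90 (adjusted p = 7.18e-05). The rise, the cholesterol exporter Abcg1 (0.68, adjusted p = 0.0284), was lost without any 1 of the 4 arrays, and on the 12 arrays its adjusted p was 0.0619 with the replicate block and 0.06 without it.

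Iron genes moved in both directions, 4 falling and 2 rising of 16. Slc40a1, the iron exporter ferroportin, read 9.45 and 10.36 and then 5.98 and 6.73 (-3.55, SE 0.30, adjusted p = 7.82e-06). Hp, haptoglobin, which binds free haemoglobin, fell by -2.17 (adjusted p = 8.89e-05). Tfrc, the transferrin receptor that takes iron in, rose from 10.73 and 10.92 to 12.38 and 12.13 (1.43, adjusted p = 0.00147), and Hfe, a regulator of that receptor, by 0.97 (adjusted p = 0.000421). The exporter was thus lower and the importer higher on both day 7 arrays. The ferritin chains Fth1 and Ftl1 differed by -0.17 and -0.05 and did not pass.

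Transcripts of red cells gave the largest falls of all. Hba-a1, an α-globin, read 12.27 and 11.71 at day 4 and 6.45 and 5.86 at day 7. Hbb-bt and Hbb-bs, β-globins, dropped by -5.70 and -5.54 (SE 1.03 and 0.96, adjusted p = 0.00306 and 0.00218), and Hba-a1 by -5.84 (SE 0.99, adjusted p = 0.00187). Globin probes can cross-read near-identical copies, so the single genes are uncertain, but the 8 further probes of the 2 β-globins fell too, by between -1.81 and -5.61. Hba-a1 had read 10.97 at day 0 and 6.65 at day 2, so the cavity series was high at day 0 and day 4 and low at day 2, day 7 and day 14. Of 7 erythroid and platelet markers 3 fell, the others being Pf4 and Alas2, an enzyme of haem synthesis. Alas2 was not well above background at day 7 and was at least 1.41-fold lower, a call that, when 1 array was left out, held only without day 4 replicate 2 (adjusted p = 0.0226, and on the 12 arrays 0.0514 with the replicate block and 0.0487 without it). The summed level of the 7 markers stood at 16252 and 14882 at day 4 and 5633 and 6341 at day 7. Pf4, which macrophages also express, read 13.42 and 13.46 and then 12.38 and 12.57. It made up most of that sum at both days, so the sum is no measure of red cell RNA. The part of red cell RNA in the iron genes was not tested.

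Of 17 matrix-degrading enzymes and inhibitors, 3 rose and 3 fell. Timp1, an inhibitor of metalloproteinases, read 9.64 and 10.20 and then 12.19 and 12.01, a rise of 2.18 (SE 0.29, adjusted p = 0.000313). Timp2 rose by 0.88 (adjusted p = 0.00265). Mmp12, the elastase of macrophages, fell from 12.36 and 12.74 to 11.31 and 11.15 (-1.32, adjusted p = 0.0027), as did Mmp9, given above. The others were Plau, urokinase (0.76, adjusted p = 0.00552, or 0.0706 without day 4 replicate 1), and its receptor Plaur (-0.66, adjusted p = 0.025, held only without day 7 replicate 1). None of 12 collagen and matrix genes passed, and Col1a1 was below background on all 4 arrays.

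Among genes of cell fusion, the step by which macrophages become foreign body giant cells, Dcstamp, a membrane protein required for it, read 7.05 and 7.35 at day 4 and was not well above background at day 7, at least 2.85-fold lower (adjusted p = 5.24e-05). In capsule cells at day 7, from digested tissue, it read 9.11. Ctsk, the collagen-degrading cathepsin of osteoclasts, rose from 10.16 and 9.74 to 11.73 and 11.50 (1.66, SE 0.27, adjusted p = 0.00136). Of 18 fusion genes 3 fell and 1 rose. The third fall, Cd9 by -0.79 (adjusted p = 0.0124), held only without day 4 replicate 2.

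Growth factors gave 3 rises and 2 falls of 15. Igf1, a macrophage-derived factor for tissue repair, read 10.49 and 10.69 and then 11.82 and 12.33 (1.49, SE 0.23, adjusted p = 0.000974). Pdgfc rose by 1.42 (adjusted p = 0.0108) and Vegfb by 0.86 (adjusted p = 0.00353), the first held only without day 4 replicate 1 and the second lost without day 4 replicate 2. Tgfb2 fell by -2.47 (adjusted p = 0.00856, lost without day 4 replicate 1 or day 7 replicate 1). Pdgfb fell by -1.04 on its brightest probe, but a second probe gave 0.08 (adjusted p = 0.92).

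Of 24 cell cycle genes, 4 rose and 2 fell, with a median of 0.30; median scaling left 2 rises. The falls were D-type cyclins, which act in G1: Ccnd2 read 12.52 and 12.34 and then 9.89 and 10.00 (-2.49, adjusted p = 0.000319), and Ccnd1 fell by -1.96 (adjusted p = 5.51e-05). Other probes gave -1.25 and -2.93 for Ccnd2, and for Ccnd1 between -2.08 and -2.26 on 3 and -0.72 on the fourth (adjusted p = 0.0991). Cenpa, the histone of centromeres, rose from 12.12 and 11.85 to 12.87 and 12.93 (0.91, SE 0.16, adjusted p = 0.00282), and its second probe gave 0.79 without passing (adjusted p = 0.113). The mitotic genes Cdc20, Plk1 and Birc5 rose by 1.02, 0.95 and 0.76 (adjusted p = 0.0198, 0.0438 and 0.0421). These 3 calls were lost without 1 array, all but Birc5 without any of the 4, and Birc5 held only without day 4 replicate 1. Of the other Cdc20 probes, 1 passed (0.84, adjusted p = 0.0197) and 1 did not (0.76, adjusted p = 0.176).

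The calls among mitochondrial and lysosomal genes were all rises. Of 18 oxidative phosphorylation genes 4 rose (Atp5o 1.6, Ndufv1 0.57, Uqcrc1 0.56 and Cox5a 0.49), with a median of 0.32. The 4 became 1 under median scaling and between 0 (without day 4 replicate 1) and 2 when 1 array was left out, and on the 12 arrays Cox5a had an adjusted p of 0.0734 with the replicate block and 0.0552 without it. Of 18 lysosomal genes 3 rose (Ctsz 0.68, Hexa 0.57 and Lamp1 0.47), which became 0 under median scaling and without day 7 replicate 2, and 1 without either day 4 array. On the 12 arrays Hexa and Lamp1 had adjusted p of 0.0896 and 0.0806 with the block and 0.0719 and 0.0662 without it. A second Ctsz probe gave 0.44 without passing (adjusted p = 0.211). Ucp1, the uncoupling protein known from brown fat mitochondria, was among the largest rises of all: it read 8.12 and 7.98 and then 12.38 and 12.42 (4.35, SE 0.37, adjusted p = 7.82e-06). None of 20 genes of glycolysis and hypoxia passed, with a median of 0.08.

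Antigen presentation changed in single genes. Cd86, a costimulatory ligand for T cells, fell from 12.18 and 12.36 to 11.13 and 10.99 (-1.21, SE 0.17, adjusted p = 0.000399). Ifi30, a lysosomal thiol reductase, rose by 1.08 (adjusted p = 0.00695, or 0.0838 without day 4 replicate 2). H2-Oa rose by 1.13 (adjusted p = 0.0381, and on the 12 arrays 0.0724 with the replicate block and 0.0573 without it), a call lost without any 1 array. The class II genes Cd74, H2-Aa and H2-Ab1 differed by 0.05, 0.06 and 0.18, and 3 of 14 genes passed in all. Of 14 dendritic cell markers 1 fell, Fscn1, whose call was lost without any 1 of the 4 arrays. Of 13 antioxidant genes 1 fell, Slc7a11, the cystine importer (-1.45, adjusted p = 0.00957), a call lost without either replicate 2 array, and none of its 3 other probes passed. Among 9 chaperones, Hspa5, the chaperone of the endoplasmic reticulum, rose by 1.13 (adjusted p = 0.0041), and Hspd1 fell by -0.65 on one probe, a call lost without any 1 array, and differed by 0.29 on another.

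**Figure D4:**
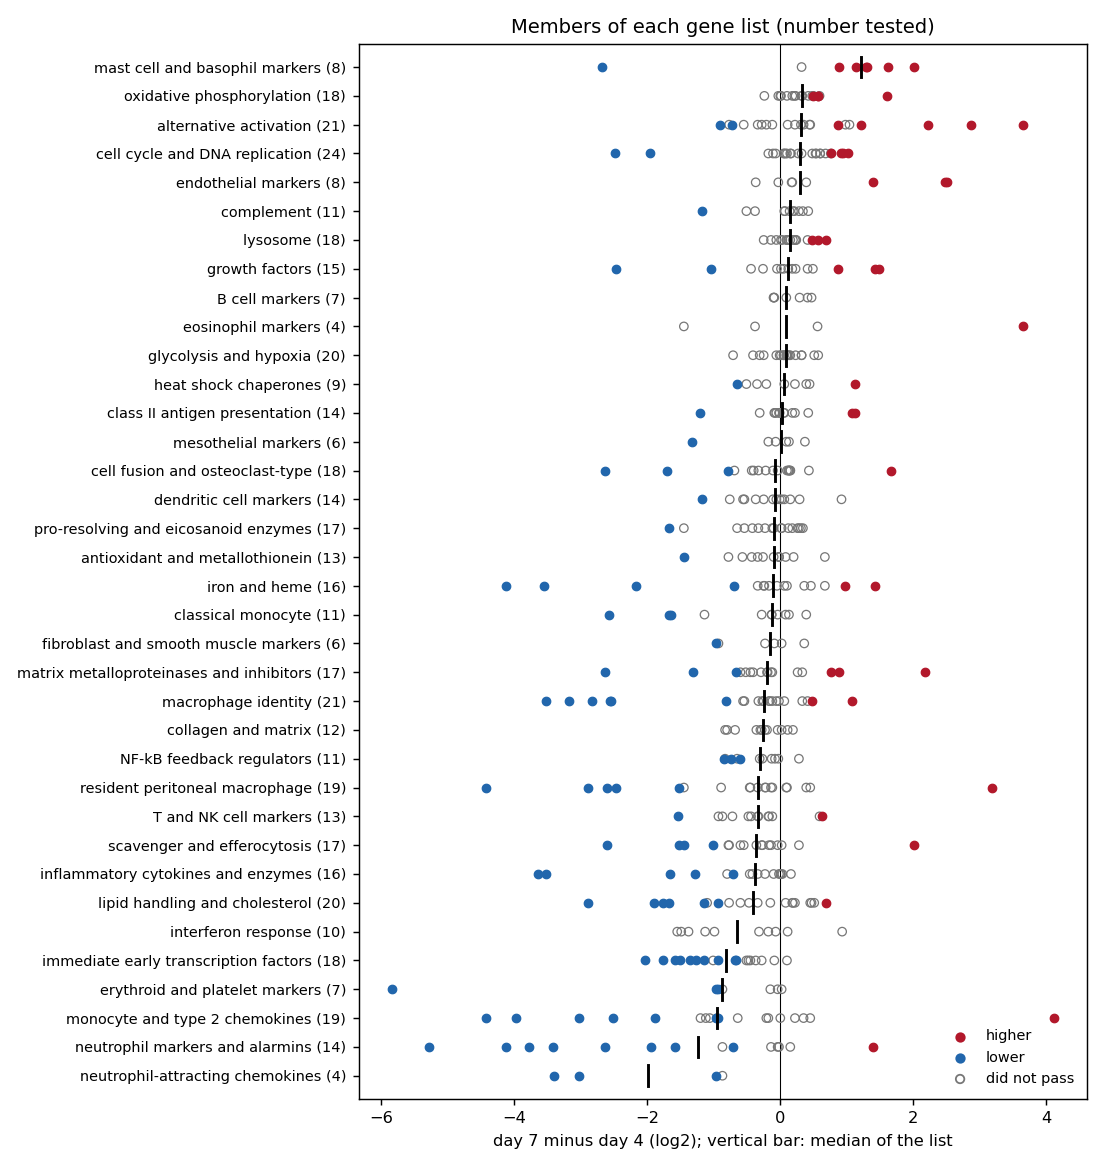
Change of each list member, day 7 minus day 4 (log2), with lists ordered by their median (black bar) and the number of genes tested in brackets; filled points passed the test (red higher, blue lower) and open points did not. Medians run from -1.99 for the list of neutrophil-attracting chemokines, which also holds Pf4, to 1.21 for the mast cell and basophil markers.

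Some markers of other cells that a sort could hold also moved. Of 8 mast cell and basophil markers tested, 6 rose and 1 fell, with a median of 1.21. Cma1, a mast cell chymase, read 6.23 and 6.57 at day 4 and 7.47 and 7.90 at day 7 (1.29, SE 0.17, adjusted p = 0.000346). Mcpt4, another chymase, was below background at day 4 and read 7.86 and 6.99 at day 7, at least 3.23-fold higher (adjusted p = 0.000421). Cpa3, the mast cell carboxypeptidase, rose by 1.62 (adjusted p = 0.00552, up to 0.06 without day 7 replicate 1 or day 4 replicate 2). All 3 had read higher at day 0, at 8.28, 8.49 and 9.78. The fall was Hdc, which makes histamine (-2.68, adjusted p = 0.000946), and Kit differed by 0.32. The summed list was 1447 and 1218 at day 4 and 1585 and 1312 at day 7. Hdc, the only member with a negative change, offset the rises in this sum, so the sum is no measure of the 6 genes that rose. The part of mast cells in other results was not tested.

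Of 8 endothelial markers 3 rose, also when any 1 array was left out. Pecam1, the adhesion molecule CD31 of endothelium and leukocytes, read 7.46 and 8.45 and then 10.49 and 10.38 (2.48, SE 0.28, adjusted p = 8.41e-05). Its other probes rose by 2.45 and 0.85. Vwf, von Willebrand factor, read 6.17 and 6.07 and then 8.67 and 8.57 (2.51, SE 0.24, adjusted p = 2.16e-05). Eng, a receptor for TGF-β ligands, rose by 1.39 (adjusted p = 0.000113). Cldn5, a junction protein of endothelium, was below background on all 4 arrays, and Kdr and Emcn differed by 0.17 and 0.39. The summed list went from 1473 and 1609 to 4247 and 4265.

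None of 7 B cell markers passed (summed 4278 and 4852 and then 5526 and 4408). Of 13 T and NK cell markers, Il7r fell by -1.54 on its brightest probe, with its 3 other probes between -0.02 and -0.36, and Cd8b1 rose by 0.63 on one probe, a call lost without either replicate 2 array, and differed by -0.03 on another. Of 6 fibroblast and smooth muscle markers and 6 mesothelial markers, 1 each fell, where 5.89% of all genes fell, so these single calls mark little. Acta2, the smooth muscle actin, fell by -0.97 and the mesothelial and lymphatic marker Pdpn by -1.33 (adjusted p = 0.0259 and 0.0275); both calls were lost without any 1 array, and on the 12 arrays Pdpn had 0.0703 with the block and 0.0583 without it. Of 4 eosinophil markers tested, only Rnase2a rose, and the receptors Ccr3 and Il5ra read at most 6.55.

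**Figure D5:**
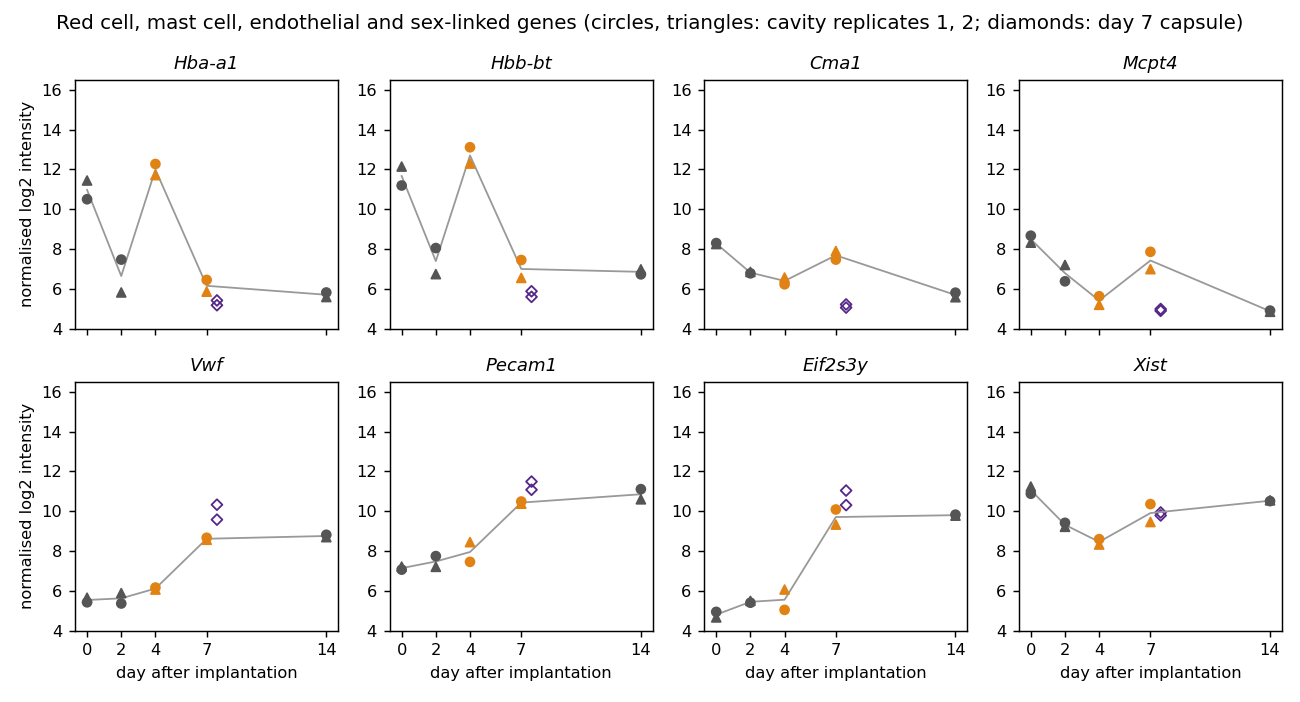
Normalised log2 intensity of 2 globin genes, 2 mast cell proteases, 2 endothelial genes and 2 sex-linked genes by day after implantation, with circles and triangles for cavity replicates 1 and 2, orange for day 4 and day 7, and open diamonds for the day 7 capsule. The globins are high at day 0 and day 4 only. In the cavity Eif2s3y is low through day 4 and high at day 7 and day 14. The day 14 capsule arrays, where it was low, are not drawn.

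Several of the largest rises lie outside the gene lists. Slc36a2, a transporter of small amino acids, read 6.32 and 7.02 and then 10.57 on both day 7 arrays (3.90, SE 0.26, adjusted p = 1.59e-06). Cela1, a pancreatic-type elastase, rose from 6.90 and 6.82 to 10.14 and 9.99 (3.21, SE 0.23, adjusted p = 1.59e-06), and Car12, a membrane carbonic anhydrase, by 3.04 (adjusted p = 0.00022). Clec4g, a lectin of sinusoidal endothelium, read 7.02 and 6.49 and then 9.68 and 9.96 (3.07, adjusted p = 3.53e-05), and reached 14.42 at day 14. Prelp, a proteoglycan of the matrix, was below background at day 4 and read 10.16 and 9.08 at day 7, at least 14.7-fold higher (adjusted p = 0.00585, or 0.0589 without day 7 replicate 1).

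Pla2g2e, a secreted phospholipase, and Plekhg6 were likewise below background at day 4 and at least 7.21-fold and 6.39-fold higher (adjusted p = 0.00037 and 4.59e-06). Msx3, a homeobox factor, rose by 2.99 (adjusted p = 9.46e-06), with 1.73 on a second probe, and Flywch2 by 3.12 (adjusted p = 4.13e-06). Among the falls outside the lists, Asprv1, an aspartic protease, was at least 12.9-fold lower (adjusted p = 3.21e-06), and St3gal6, a sialyltransferase, fell from 8.99 and 9.13 to 5.48 and 5.81 (-3.42, adjusted p = 3.53e-05), with 1 of 2 day 7 arrays above background.

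The changes from day 4 to day 7 were set beside day 2 against day 0 and day 14 against day 0, which use none of the same 4 arrays but share each gene's estimate of spread. Of the 636 genes that fell, 205 (32.2%, and 14.2% of the 1440 genes concerned) had been higher at day 2 than at day 0, against 13.3% of all genes tested. A further 128 (20.1%, and 10.1% of 1263) had been lower at day 2, against 11.7% of all. Il1b, S100a9, Cxcr2, Clec4n, Slc40a1 and Asprv1 belonged to the first kind, with rises at day 2 of 6.48, 8.78, 5.09, 4.63, 5.79 and 4.94. Apoc1, Cxcl13, Marco and Timd4 belonged to the second, with falls at day 2 of -5.08, -5.45, -4.31 and -2.18. Hence the genes that were lower at day 7 include both some that had risen after implantation and some that had fallen already.

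At day 14 the cavity cells showed many of the same genes. Of the 474 that rose from day 4 to day 7, 212 (44.7%, and 19% of 1117) were higher at day 14 than at day 0 and 20 (4.22%, and 1.95% of 1027) lower, against 10.3% and 9.5% of all genes. Of the 636 that fell, 242 (38.1%, and 23.6% of 1027) were lower at day 14 than at day 0 and 45 (7.08%, and 4.03% of 1117) higher. Rnase2a, Clec4g, Ucp1, Car12, Slc36a2 and Timp1 were higher at day 14 by 8.10, 7.41, 5.97, 5.29, 5.0 and 5.86. By then Il1b (0.36), Ccl2 (0.22), Csf1 (-0.76) and Cxcr2 (-0.02) differed from day 0 without passing the test, and S100a9 was still higher by 2.45 (adjusted p = 0.00298). Mast cell genes did not stay up: Cma1 and Mcpt4 were lower at day 14 than at day 0 by -2.58 and -3.62.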

How the data were processed

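RNA of pooled EGFP-bright cells was measured on 18 Illumina mouse bead arrays in 9 groups of 2. The deposited non-normalised table gives linear intensity per probe and array, with a p-value for detection against negative controls, per the file headers. The authors' series values, deposited on the log2 scale after quantile normalisation, served as an alternative. The submitters' processing notes name BeadStudio and R 2.15.3. Neither the notes nor the labels say how background was treated for those values.

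Background correction and quantile normalisation used limma 3.58.1 (neqc, R 4.3.3) with an offset of 16, the controls being inferred from the detection p-values. A probe was kept if both arrays of any group detected it at p 0.05, which 20985 of 46632 did. Of all probes, 29976 had 1 gene symbol, 10 had several and 16646 none. The brightest kept probe stood for each gene, giving 10806 genes of 17711. One mean per group was fitted over 18 arrays, with 9 residual degrees of freedom, empirical Bayes moderation (prior 4.58), 2-sided tests and Benjamini-Hochberg adjustment over the 10806 genes within each comparison at 0.05; all p-values given are from this fit unless another is named. A gene below background on both arrays of a day has only a bound, "at least N-fold": the bright group's mean against the dim group's mean of the higher of the lowest detected signal and the probe's own.

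Named genes were the 15 largest rises and 15 largest falls whose arrays did not overlap, clone and locus names excepted, and up to 4 members of each of 36 lists with the smallest p (106 genes); other list members were named after their values were seen. The comparison, members and lists were chosen with earlier results of these data known. The replicate number marks a shared slide, per the labels; the replicate 1 deviations of day 4 and day 7 correlated at -0.0935 across genes (15 pairs of groups from -0.11 to 0.129). Fits were tested on simulated data. Promoters came from RefSeq; 8784 of the tested genes matched by symbol. Alternatives are given in the closing section. The number of arrays limits the precision.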

Additional observations from a re-analysis of the deposited data

How the results depend on the processing

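The count of changed genes was 1110 (474 higher, 636 lower). It was 1720 with every probe as its own test, 807 of them higher, and 424 when at least a 2-fold change was asked for (154 higher, 270 lower). With 1 array left out it ranged from 575 to 634 (227 to 262 higher, 331 to 372 lower), and 531 to 573 of these were among the 1110. Other background corrections, detection filters, the authors' values, a mean-dependent prior, the 4 or the 10 lavage arrays alone and the slide as a random block gave between 880 and 1321. Median scaling gave 1137 with 28.3% higher against 42.7%, and moved the median of all genes from -0.014 to -0.082. With the replicate block on the 12 arrays of slides 1 and 2 the count was 963, against 1020 on the same arrays without it; 98 of the 106 named genes passed with the block and 99 on those arrays without it. Of 123 list genes called, 12 were lost with the block and 12 without it, 11 of them in both; of these the block alone ended the call of Alas2, and Plaur was lost only without it. No named gene turned direction on its own probe under these alternatives, and 74 of 106 passed in each fit with 1 array left out. Of 40 other probes, 27 passed in the same direction, and 4 turned it without passing: Cd8b1 -0.03, Hspd1 0.29, Pdgfb 0.08 and Slc7a11 0.02. The causes were not tested. Genes near background, such as Tnf or Mcpt4 on one of the days, have only bounds, and the brightest, such as Arg1, are compressed.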
